A study of Homo sapiens with 12 samples.

Results

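The circadian clock and PAR bZIP genes described here are 10 genes: the PAR bZIP transcription factors DBP, TEF and HLF, the nuclear receptors NR1D1 and NR1D2, the period genes PER1, PER2 and PER3, and the cryptochromes CRY1 and CRY2. Of these, 8 were measured among 14884 genes with a symbol in the array annotation, each by 1 transcript cluster. NR1D1 and NR1D2 had no symbol in that annotation and were not analysed here. They were chosen by their symbols, with their log2 changes under JQ1 against vehicle in each line in view. The JQ1 comparisons of these genes are therefore a description, without a test.

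In the mammalian clock the activators CLOCK (or NPAS2) and BMAL1 bind E-box sequences and switch on the PER and CRY genes, whose proteins return to the nucleus and block the activators. The same activators switch on the REV-ERB receptors NR1D1 and NR1D2, which repress BMAL1, and the PAR bZIP factors, which bind D-box sequences in output genes and in some PER promoters. PAR bZIP factors share a basic leucine zipper domain for DNA binding and dimerisation, preceded by a proline and acidic amino acid rich region.

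RNA was prepared from MDA-MB-231 and from HCC70, which are both established lines of triple-negative human breast carcinoma, after 72 hours in 500 nM JQ1 or in 0.1% DMSO as vehicle. The compound JQ1 blocks the bromodomains of BET proteins, which read acetylated histones, and so displaces these proteins from chromatin. The groups were JQ1-treated MDA-MB-231, vehicle-treated MDA-MB-231, JQ1-treated HCC70 and vehicle-treated HCC70, with 3 Human Gene 2.0 ST arrays in each, 12 in all. Separate cultures for the arrays within a group are not stated, so the p-values cover just the spread among these arrays, which may be technical, and the number of arrays limits the precision. RNA was taken at a single time, so clock phase and amplitude were not measured, and in bulk RNA fewer cells of a type and less RNA per cell cannot be told apart.

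Levels are log2 signals, and each array's median over all genes was from 6.16 to 6.26 and its lower quartile from 4.73 to 4.87. The 8 clock genes lay between 5.82 and 9.32 on single arrays, and TEF and HLF sat closest to the array medians. Of 6 epithelial markers 5 were measured, and between the vehicle-treated lines 3 of them (KRT5, KRT14 and EPCAM) were higher in HCC70 and KRT18 was lower, while KRT8 did not pass. All 3 measured of 4 mesenchymal markers (VIM, ZEB1 and FN1) were lower in HCC70. The mean log2 signal of the epithelial markers was 6.61 to 6.80 in JQ1-treated and 6.75 to 7.17 in vehicle-treated MDA-MB-231 arrays, and 8.55 to 8.72 in JQ1-treated and 8.49 to 8.65 in vehicle-treated HCC70. That of the mesenchymal markers was 9.25 to 9.43 and 9.80 to 9.98 in MDA-MB-231, and 5.05 to 5.47 and 6.86 to 6.98 in HCC70, in the same order of treatments. Some of these markers moved with JQ1 as well, EPCAM by -1.74 in MDA-MB-231, VIM by -1.72 in HCC70 and FN1 by -1.40 in MDA-MB-231 and -3.12 in HCC70. The JQ1 effect on VIM differed between the lines by -1.87, in the direction of that on DBP, and the part of these markers in the results was not tested. The progesterone receptor PGR lay below the lower quartile in all 4 groups (means 3.64 to 3.93), and the oestrogen receptor ESR1 close to it (4.89 to 5.09). The monocyte marker CD14, the 1 blood marker measured of 4 listed, averaged 8.14 and 8.52 in HCC70 against 5.99 and 5.72 in MDA-MB-231, and its JQ1 effect differed by -0.65 between the lines. Its part in the results was not tested. An earlier look at these data found 3 arrays numbered 3 apart from their groups (MDA-MB-231 JQ1, MDA-MB-231 vehicle and HCC70 JQ1), and values without them are given where the call of a named gene changes.

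**Figure D1:**
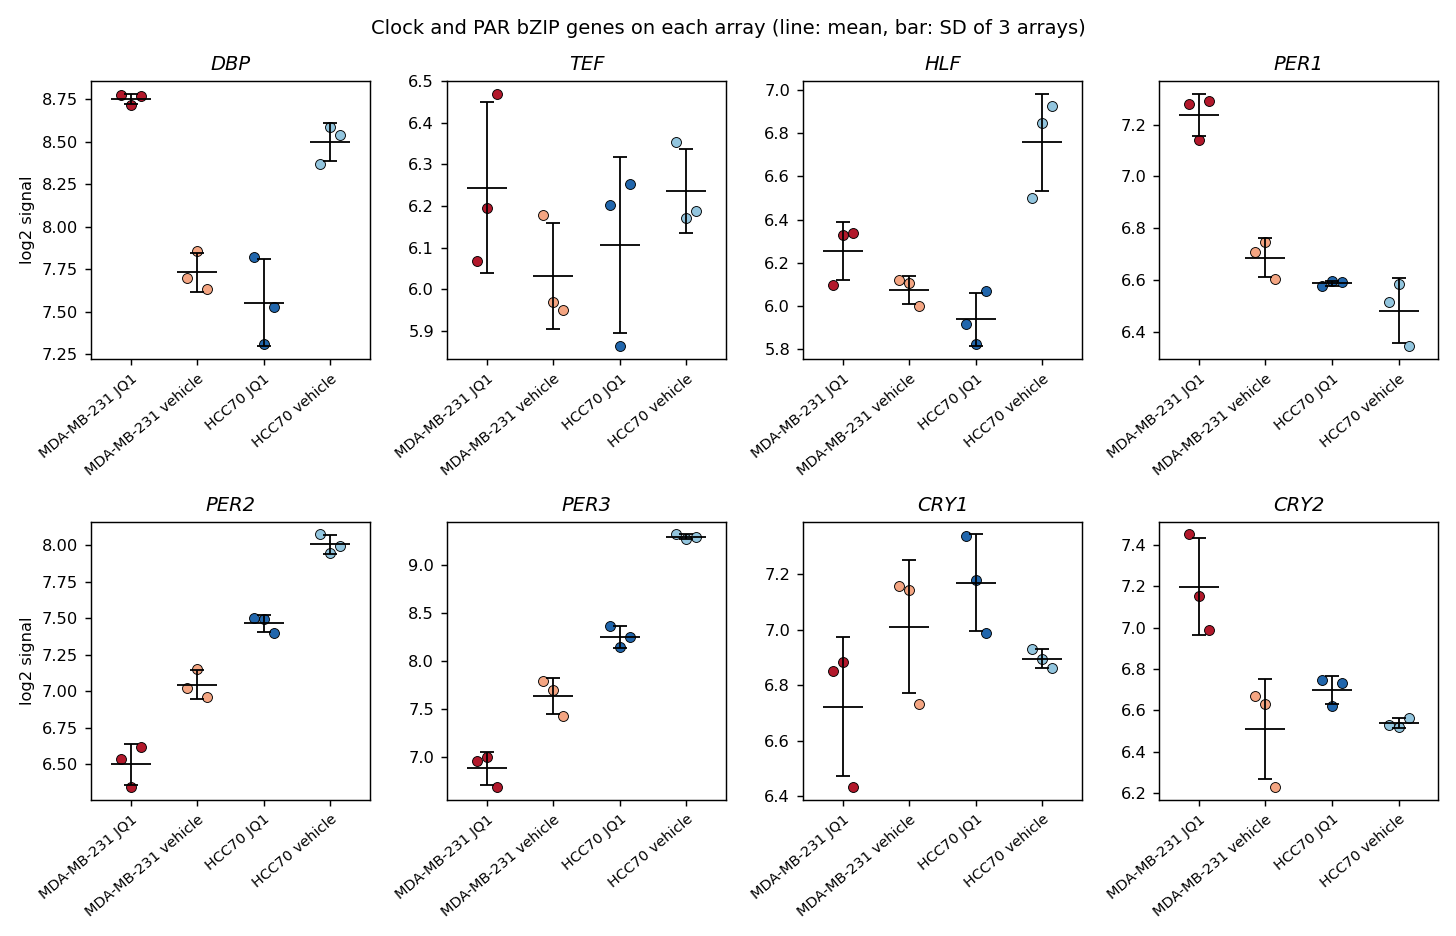
Log2 signal (vertical axis, scaled separately in each panel) of the 8 measured clock and PAR bZIP genes on each of 12 arrays. Points are arrays, long lines are means and bars are the SD of 3 arrays. DBP was high in JQ1-treated MDA-MB-231 (8.72 to 8.77) and in vehicle-treated HCC70 (8.37 to 8.59), while PER2 and PER3 were lower under JQ1 in both lines.

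DBP, the PAR bZIP factor best known as a strongly rhythmic clock output, was higher under JQ1 in MDA-MB-231 and lower under JQ1 in HCC70. In MDA-MB-231 its log2 signals were 8.77, 8.72 and 8.77 under JQ1, against 7.70, 7.86 and 7.63 in vehicle. The groups did not overlap, and the means differed by 1.02 ± 0.12 (SE) on the log2 scale, or 2.03-fold. In HCC70 the signals were 7.82, 7.31 and 7.53 under JQ1, against 8.37, 8.59 and 8.54 in vehicle. The groups again did not overlap, with a log2 change of -0.95 ± 0.12 (1.93-fold lower under JQ1). The difference between the JQ1 effects, HCC70 minus MDA-MB-231, was -1.97 ± 0.17. From high to low the group means were 8.75 in JQ1-treated MDA-MB-231, 8.50 in vehicle-treated HCC70, 7.73 in vehicle-treated MDA-MB-231 and 7.55 in JQ1-treated HCC70. The last pair overlapped, and the first pair did not. Among the 8 measured genes the widest spread in a group was that of DBP in JQ1-treated HCC70 (SD 0.26).

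HLF, the PAR bZIP factor known from a leukaemia fusion protein, was lower under JQ1 in HCC70. Its signals there were 5.92, 5.82 and 6.07 under JQ1, against 6.50, 6.85 and 6.93 in vehicle, with no overlap and a log2 change of -0.82 ± 0.12 (1.77-fold lower). In MDA-MB-231 HLF read 6.10, 6.33 and 6.34 under JQ1 and 6.12, 6.11 and 6.0 in vehicle. These groups overlapped, and the change was 0.18 ± 0.12. Vehicle-treated HCC70 was thus the single group of HLF whose arrays all lay above those of the other 3 groups.

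TEF, the third PAR bZIP factor, first described in pituitary thyrotrophs, overlapped between treatments in both lines. It read 6.07, 6.19 and 6.47 under JQ1 and 6.18, 5.97 and 5.95 in vehicle in MDA-MB-231 (log2 change 0.21 ± 0.13). In HCC70 it read 6.20, 5.86 and 6.25 under JQ1 and 6.35, 6.17 and 6.19 in vehicle (-0.13 ± 0.13). The 4 group means of TEF spanned 6.03 to 6.24, and no group stood apart from the rest.

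The period genes split. PER2 and PER3 were lower under JQ1 in both lines, and PER1 was higher under JQ1 in MDA-MB-231. Their promoters are shown because PER2 and PER3 moved together and hold a sequence that PAR bZIP factors bind, and that of DBP is shown because it moved in opposite directions in the lines. Each window runs from 250 bases before to 50 after a RefSeq start (GRCh38.p14, 300 bases, 5′ to 3′ on the gene's strand), and capitals mark matches to the motifs named after the sequences. PER2 is at chr2:238288561-238288860 (minus strand), the first of 2 PER3 windows at chr1:7784041-7784340 (plus strand), PER1 at chr17:8152355-8152654 (minus strand) and DBP at chr19:48637330-48637629 (minus strand).
PER2: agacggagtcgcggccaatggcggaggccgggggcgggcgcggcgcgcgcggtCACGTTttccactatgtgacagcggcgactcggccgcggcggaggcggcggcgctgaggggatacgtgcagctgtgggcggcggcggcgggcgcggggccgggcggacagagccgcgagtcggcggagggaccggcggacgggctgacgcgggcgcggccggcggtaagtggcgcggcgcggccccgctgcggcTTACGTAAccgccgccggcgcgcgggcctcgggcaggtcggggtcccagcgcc
PER3: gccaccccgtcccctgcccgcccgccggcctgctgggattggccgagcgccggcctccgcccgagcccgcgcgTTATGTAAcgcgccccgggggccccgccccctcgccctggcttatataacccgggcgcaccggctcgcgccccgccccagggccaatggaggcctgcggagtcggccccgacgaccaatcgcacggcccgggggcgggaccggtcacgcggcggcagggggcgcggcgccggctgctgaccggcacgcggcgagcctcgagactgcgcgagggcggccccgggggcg
PER1: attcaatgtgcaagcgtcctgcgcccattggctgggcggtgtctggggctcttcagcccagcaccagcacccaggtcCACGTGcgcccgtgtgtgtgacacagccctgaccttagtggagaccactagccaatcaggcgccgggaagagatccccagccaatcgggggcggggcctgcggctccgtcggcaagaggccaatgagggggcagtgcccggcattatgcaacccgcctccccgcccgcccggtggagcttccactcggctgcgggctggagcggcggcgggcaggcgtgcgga
DBP: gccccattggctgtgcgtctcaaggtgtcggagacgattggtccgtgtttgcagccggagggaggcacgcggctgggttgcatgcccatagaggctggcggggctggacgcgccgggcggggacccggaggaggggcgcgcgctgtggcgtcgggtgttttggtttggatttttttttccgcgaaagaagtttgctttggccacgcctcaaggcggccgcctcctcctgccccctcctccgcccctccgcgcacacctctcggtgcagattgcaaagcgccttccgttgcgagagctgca

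The motifs were searched on both strands: the E-box CACGTG, the E′-box CACGTT, the D-box TTATGTAA or TTACGTAA, and the cyclic AMP response element TGACGTCA. Counting the first base of the transcript as 1 and the base before it as -1, with no base 0, the D-box in PER3 began at -177, and in PER2 a D-box began at -3 and an E′-box at -197. PER1 had an E-box at -173, and the DBP window held 0 of these motifs. Bases outside the windows were not searched, in DBP or in the other genes. All 8 measured genes had a window, 12 windows in all. A D-box was found in 2 of the 12, that of PER2 and the first of PER3. Over all 35116 windows of this length in the table, 1.01% held a D-box, 7.26% an E-box, 5.34% an E′-box and 1.85% a cyclic AMP response element. Among the other clock genes both TEF windows held an E-box, CRY1 and 1 of 2 CRY2 windows an E′-box, and 1 of 2 HLF windows a cyclic AMP response element. These are matches of letters, not measured binding. The windows shown were picked with the JQ1 changes in view, and the part of the motifs in those changes was not tested.

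PER2, a repressor subunit of the clock, read 6.54, 6.35 and 6.62 under JQ1 and 7.02, 7.16 and 6.96 in vehicle in MDA-MB-231. In HCC70 it read 7.50, 7.50 and 7.40 under JQ1 and 8.08, 7.95 and 7.99 in vehicle. Treatments did not overlap in either line, and the log2 changes were -0.55 ± 0.092 in MDA-MB-231 and -0.54 ± 0.092 in HCC70, a difference of 0.01 ± 0.13. The 4 groups of PER2 did not overlap anywhere, in the order vehicle-treated HCC70, JQ1-treated HCC70, vehicle-treated MDA-MB-231 and JQ1-treated MDA-MB-231.

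PER3, the period gene that mice can lose with little effect on rhythm, followed the same order without overlap. It read 6.96, 7.0 and 6.69 under JQ1, against 7.79, 7.70 and 7.43 in vehicle, in MDA-MB-231 (log2 change -0.76 ± 0.11). In HCC70 it read 8.37, 8.14 and 8.25 under JQ1, against 9.32, 9.27 and 9.29 in vehicle. That was a log2 change of -1.04 ± 0.11, or 2.06-fold lower, the lowest value of the 8 genes in that line.

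PER1, the period gene that also answers hormones and cyclic AMP within hours, read 7.28, 7.14 and 7.29 under JQ1 and 6.71, 6.75 and 6.60 in vehicle in MDA-MB-231. The groups did not overlap, with a log2 change of 0.55 ± 0.087 (1.47-fold). In HCC70 PER1 read 6.58, 6.59 and 6.59 under JQ1 and 6.52, 6.59 and 6.34 in vehicle, and these overlapped (0.11 ± 0.087). JQ1-treated MDA-MB-231 was the highest of the 4 groups of PER1.

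CRY2, a repressor that partners the PER proteins, was higher under JQ1 in MDA-MB-231. It read 7.45, 7.16 and 6.99 under JQ1 there, against 6.67, 6.63 and 6.23 in vehicle, without overlap (log2 change 0.69 ± 0.13, 1.61-fold). In HCC70 it read 6.75, 6.62 and 6.73 under JQ1 and 6.53, 6.52 and 6.56 in vehicle. These did not overlap either, but the change was small (0.16 ± 0.13).

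CRY1, the stronger repressor of the cryptochrome pair in cultured mouse cells, read 6.85, 6.89 and 6.43 under JQ1 and 7.16, 7.14 and 6.73 in vehicle in MDA-MB-231. The third array was the lowest in both groups, and the groups overlapped through it (log2 change -0.29 ± 0.14). In HCC70 CRY1 read 7.34, 7.18 and 6.99 under JQ1 and 6.93, 6.90 and 6.86 in vehicle, with no overlap (0.27 ± 0.14). Without the 3 arrays numbered 3 the CRY1 changes were -0.28 in MDA-MB-231 and 0.36 in HCC70, with a difference of 0.65, and all 3 values then passed the threshold given below for all genes.

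**Figure D2:**
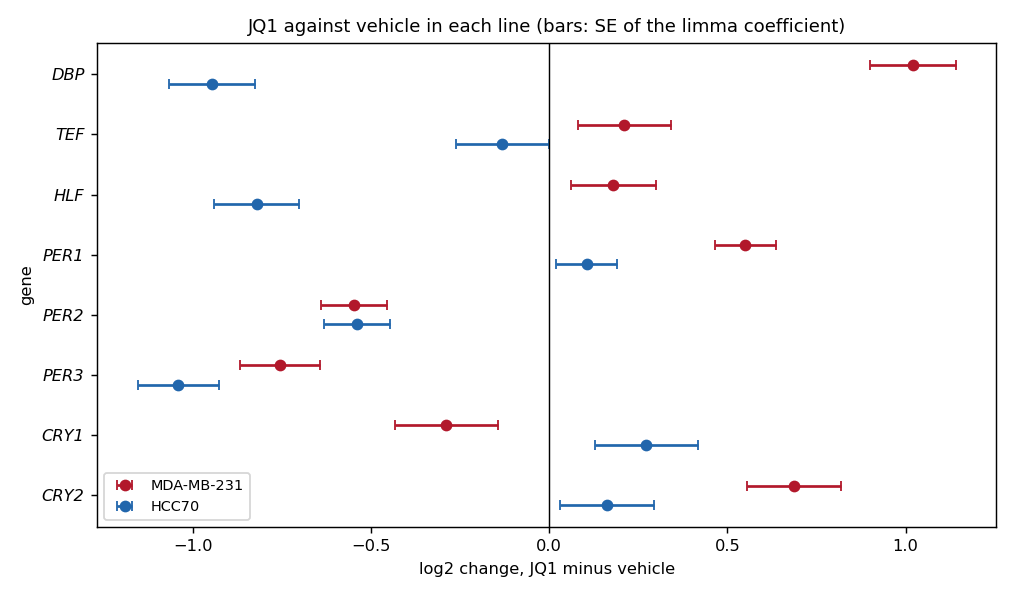
Log2 change under JQ1 against vehicle (horizontal axis) for the 8 measured genes (vertical axis) in MDA-MB-231 and HCC70. Points are limma coefficients from 3 arrays per group and bars their SE. DBP lies at 1.02 in MDA-MB-231 and at -0.95 in HCC70, and PER2 at -0.55 and -0.54.

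In the limma fit over all genes, with Benjamini-Hochberg adjustment and a threshold of 0.05, 5 of the 8 genes passed in MDA-MB-231, beside 27.8% of all genes. DBP, PER1 and CRY2 were on the higher side (10.8% of all genes) and PER2 and PER3 on the lower (17.0%). In HCC70 4 of 8 passed, DBP, HLF, PER2 and PER3, all 4 lower, beside 21.7% of all genes in either direction and 12.5% lower. For the difference of the JQ1 effects 3 of 8 passed, DBP, HLF and PER1, beside 15.0% of all genes, 9.02% higher and 5.95% lower. The median log2 change of the 8 genes was 0.20 in MDA-MB-231 and -0.34 in HCC70, and that of all genes 0.02 and 0.01. Since the genes were listed with these comparisons known, nothing is read from these counts. With the replicate number as a block CRY1 also passed in MDA-MB-231 and for the difference, where CRY2 passed too and PER1 no longer did. Without the 3 arrays numbered 3, 6 genes passed in MDA-MB-231 and 5 in HCC70, 1 of them higher (CRY1), and for the difference CRY1 passed and PER1 did not.

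The next question was whether the clock genes differ between the lines. The difference in vehicle and the difference under JQ1 share their arrays with the JQ1 effects, and the second is the first plus the difference of those effects, so both are given as a description. In vehicle, PER3, PER2, DBP and HLF were higher in HCC70 than in MDA-MB-231, each without overlap of the arrays. PER3 averaged 9.29 ± 0.025 in HCC70 and 7.64 ± 0.19 in MDA-MB-231 (SD, n = 3 each), a log2 difference of 1.65 ± 0.11 (SE; 3.15-fold). PER2 differed by 0.96 ± 0.092, DBP by 0.77 ± 0.12 and HLF by 0.68 ± 0.12. PER1 averaged 6.48 ± 0.12 in HCC70 and 6.69 ± 0.075 in MDA-MB-231 (SD), and its arrays did not overlap (-0.20 ± 0.087). This PER1 difference did not pass in the fit over all genes (limma adjusted p = 0.072). It did among genes above the median level (0.030) and with MDA-MB-231 vehicle replicate 3 left out (0.0494). How many of all genes were without overlap was not counted, here or for JQ1 against vehicle. TEF, CRY1 and CRY2 overlapped between the vehicle-treated lines, with differences of 0.20 ± 0.13, -0.12 ± 0.14 and 0.03 ± 0.13.

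Under JQ1 DBP lay on the other side, at 7.55 ± 0.26 in HCC70 and 8.75 ± 0.031 in MDA-MB-231 (SD, n = 3 each), a log2 difference of -1.20 ± 0.12 (2.30-fold). This follows from its opposite JQ1 changes and is no further result. PER2 and PER3 were higher in HCC70 under JQ1 too, by 0.97 ± 0.092 and 1.37 ± 0.11. CRY1 was higher by 0.45 ± 0.14, PER1, CRY2 and HLF were lower (-0.65 ± 0.087, -0.50 ± 0.13 and -0.32 ± 0.12), each without overlap, and TEF overlapped (-0.14 ± 0.13). In the fit over all genes 4 of 8 passed in vehicle, all 4 higher in HCC70, beside 47.0% of all genes (23.8% higher and 23.2% lower). Under JQ1 7 of 8 passed, 3 higher and 4 lower, beside 46.3% (24.5% higher and 21.8% lower). Nothing is read from these counts. Without the 3 arrays numbered 3, CRY1 also passed in vehicle (-0.25) and HLF no longer did under JQ1 (-0.34). The HLF call under JQ1 also ended with trend and robust moderation (limma adjusted p = 0.058) and over all transcript clusters (0.085). It ended too with quantile normalization (0.064), with centred arrays (0.074) and with any 1 of 8 arrays left out (0.0502 to 0.15). The CRY1 call under JQ1 ended with any 1 of 3 arrays left out (limma adjusted p = 0.056 to 0.10).

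The difference between the lines averaged over both treatments is orthogonal to the JQ1 effects and was tested. This test was added after the data had been seen. PER3 and PER2 were higher in HCC70, at 8.77 against 7.26 and at 7.74 against 6.77 in MDA-MB-231, by 1.51 ± 0.080 and 0.96 ± 0.065 (SE; limma adjusted p = 2.8e-09 and 3.0e-08). PER1 was lower in HCC70, at 6.53 against 6.96, by limma (-0.43 ± 0.061, adjusted p = 4.4e-05). The PER1 difference was -0.65 under JQ1 and -0.20 in vehicle, where it did not pass (limma adjusted p = 0.072). Those of PER3 and PER2 passed in both treatments. The 3 averaged calls held under all alternatives run.

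DBP and CRY2 passed narrowly on the lower side, at -0.22 ± 0.085 and -0.24 ± 0.093 (limma adjusted p = 0.048 and 0.049). Neither was lower in HCC70 in vehicle. The DBP average joins 0.77 in vehicle with -1.20 under JQ1, and that of CRY2 joins 0.03 with -0.50. For DBP the call ended with the replicate block (limma adjusted p = 0.065), without the 3 arrays numbered 3 (0.11), over all transcript clusters (0.085), with centred arrays (0.078) and with any 1 of 10 arrays left out (0.0504 to 0.12). For CRY2 it ended over all transcript clusters (limma adjusted p = 0.086), with quantile normalization (0.080), with centred arrays (0.083) and with any 1 of 10 arrays left out (0.063 to 0.12). HLF, CRY1 and TEF did not pass (0.18 ± 0.084, 0.17 ± 0.10 and 0.03 ± 0.092, with limma adjusted p = 0.086, 0.20 and 0.80). HLF did pass among genes above the median level (limma adjusted p = 0.047), with quantile normalization (0.046) and with HCC70 vehicle replicate 1 left out (0.014). In all 5 of 8 genes passed, 2 higher and 3 lower in HCC70, close to the 54.4% of all genes that did (28.3% higher and 26.1% lower).

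**Figure D3:**
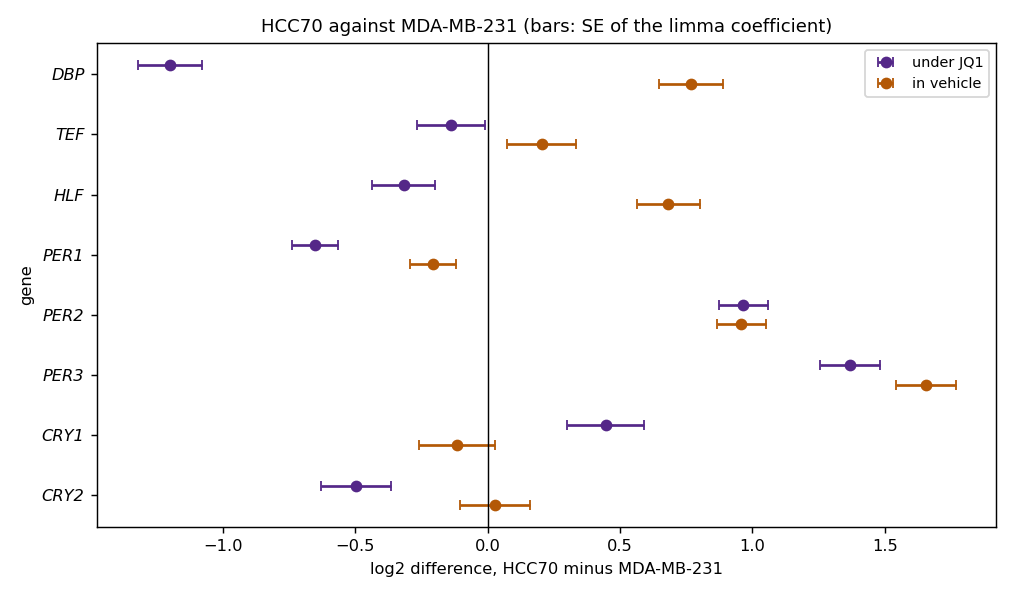
Log2 difference between the lines, HCC70 minus MDA-MB-231 (horizontal axis), under JQ1 and in vehicle, for the 8 measured genes (vertical axis). Points are limma coefficients from 3 arrays per group and bars their SE. DBP lies at -1.20 under JQ1 and 0.77 in vehicle, and PER2 at 0.97 and 0.96.

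The other genes of the clock were tested for JQ1 in each line from 3 lists of 41 genes, of which 21 were measured. In MDA-MB-231 7 of the 21 fell and 1 rose, and in HCC70 4 fell and 3 rose (limma, adjusted over all genes). Over all genes 27.8% passed in MDA-MB-231, 17.0% lower and 10.8% higher, and in HCC70 21.7% passed, 12.5% lower and 9.18% higher. The median log2 change of the 21 genes was -0.24 in MDA-MB-231 and -0.07 in HCC70. The called genes named below were picked for their small p under JQ1. Their differences of the effects are built from those comparisons and are a description.

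Among the activators and other feedback factors 3 of 6 measured genes fell in each line and 0 rose, with medians of -0.38 in MDA-MB-231 and -0.40 in HCC70. CLOCK, the activator that pairs with BMAL1, read 9.51, 9.42 and 9.39 under JQ1 and 10.26, 10.21 and 10.28 in vehicle in MDA-MB-231. It fell by 0.81 ± 0.080 there (limma adjusted p = 7.1e-06) and by 0.68 ± 0.080 in HCC70 (limma adjusted p = 5.3e-05). NPAS2, a CLOCK paralog that can take its place, fell by 0.48 ± 0.086 in MDA-MB-231 (limma adjusted p = 0.00094) and by 1.06 ± 0.086 in HCC70 (limma adjusted p = 2.6e-06).

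BMAL2 fell in MDA-MB-231 and BMAL1 in HCC70. BMAL2, a paralog of BMAL1, read 7.25, 7.21 and 7.14 under JQ1 and 8.15, 8.36 and 8.10 in vehicle in MDA-MB-231, and fell by 1.01 ± 0.10 (limma adjusted p = 7.7e-06). In HCC70 BMAL2 overlapped between treatments (-0.07 ± 0.10, limma adjusted p = 0.71), and the difference of the effects was 0.93 ± 0.14 (limma adjusted p = 0.00066). BMAL1, the main partner of CLOCK, read 6.85, 6.53 and 6.65 under JQ1 and 7.50, 7.53 and 7.30 in vehicle in HCC70, and fell by 0.76 ± 0.12 (limma adjusted p = 0.00042). In MDA-MB-231 the BMAL1 change was -0.29 ± 0.12 and did not pass (limma adjusted p = 0.090), and the difference of its effects did not pass either (-0.48 ± 0.16, limma adjusted p = 0.076). Among genes above the median level both the BMAL1 change in MDA-MB-231 and the difference passed (limma adjusted p = 0.042 and 0.032). The BMAL1 change in MDA-MB-231 passed with MDA-MB-231 vehicle replicate 3 left out (limma adjusted p = 0.022), and the difference without HCC70 JQ1 replicate 1 (0.046) and with quantile normalization (0.0498). The activating receptors RORA and RORB lay below the lower quartile of the arrays in all 4 groups (means 4.08 to 4.49) and did not pass.

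Of 9 measured kinases, ubiquitin ligases and cofactors of clock proteins, 1 rose and 1 fell in MDA-MB-231, and 3 rose and 0 fell in HCC70. The deacetylase SIRT1, which acts on BMAL1 and PER2 in mouse cells, read 8.67, 8.61 and 8.36 under JQ1 and 7.45, 7.42 and 7.55 in vehicle in HCC70. It rose by 1.07 ± 0.10 (2.11-fold, limma adjusted p = 8.3e-06), against 0.22 ± 0.10 in MDA-MB-231, which did not pass (limma adjusted p = 0.13) except with quantile normalization (0.013). For SIRT1 the difference of the effects was 0.86 ± 0.14 (limma adjusted p = 0.0012). GSK3B, a kinase of several clock proteins, rose by 0.53 ± 0.078 in MDA-MB-231 (limma adjusted p = 0.00023) and by 0.26 ± 0.078 in HCC70 (limma adjusted p = 0.032).

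The histone demethylase KDM5A, a coactivator of CLOCK and BMAL1 in mouse cells, rose by 0.34 ± 0.11 in HCC70 (limma adjusted p = 0.046). With array medians set equal, GSK3B and KDM5A lost their HCC70 calls (limma adjusted p = 0.073 and 0.082), as they did over all transcript clusters (0.091 and 0.11). Without a single array GSK3B lost it for 5 of the 6 HCC70 arrays (limma adjusted p = 0.054 to 0.12), and KDM5A for all 6 and for each MDA-MB-231 JQ1 array, 9 in all (0.0509 to 0.15). The deubiquitinase USP7, which stabilises cryptochrome CRY1 in mouse cells, fell by 0.27 ± 0.071 in MDA-MB-231 (limma adjusted p = 0.012), a call that ended with that line fitted alone (adjusted p = 0.059).

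Of 6 measured output and PAR bZIP target genes, 3 fell in MDA-MB-231 and 1 in HCC70, and 0 rose in either line, with medians of -0.43 and -0.19. WEE1, the mitotic inhibitor kinase that the clock drives through E-boxes in mouse liver, read 8.02, 7.90 and 7.68 under JQ1 and 9.41, 9.35 and 9.19 in vehicle in MDA-MB-231. It fell by 1.45 ± 0.11 there (2.73-fold, limma adjusted p = 7.2e-07) and by 0.50 ± 0.11 in HCC70 (limma adjusted p = 0.0052), a difference of 0.95 ± 0.16 (limma adjusted p = 0.0013). NAMPT, the rate-limiting enzyme of NAD salvage, fell by 0.82 ± 0.12 in MDA-MB-231 (limma adjusted p = 0.00016), with changes of -0.68 and -0.99 on its 2 dimmer clusters. KLF10, a zinc finger factor under clock control in mouse liver, fell by 0.63 ± 0.079 in MDA-MB-231 (limma adjusted p = 5.9e-05). In HCC70 NAMPT and KLF10 changed by -0.28 ± 0.12 and -0.16 ± 0.079, and neither passed (limma adjusted p = 0.11 and 0.19). NAMPT did pass in HCC70 with a variance trend and robust moderation (limma adjusted p = 0.029) and with quantile normalization (0.044).

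**Figure D4:**
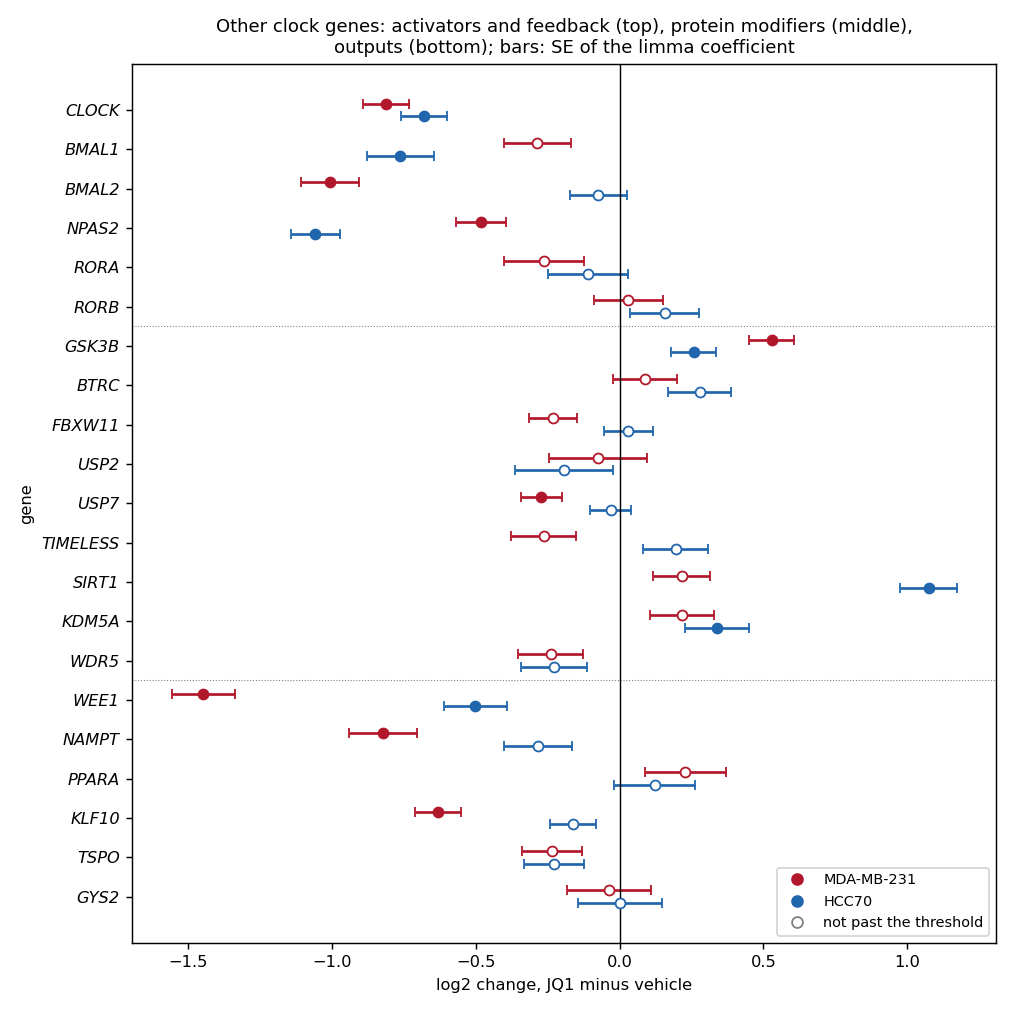
Log2 change under JQ1 against vehicle (horizontal axis) for the 21 other clock genes measured (vertical axis) in MDA-MB-231 and HCC70. Points are limma coefficients, bars their SE, and open points did not pass the threshold. CLOCK and NPAS2 lie left of 0 in both lines (CLOCK at -0.81 and -0.68), BMAL2 at -1.01 in MDA-MB-231 and -0.07 in HCC70.

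Likeness to DBP was measured as Pearson's r over the 12 arrays after each line's mean was taken off, as a description. The 12 arrays form 4 groups, so r mostly follows the group means. The nearest genes were HYKK, a hydroxylysine kinase (r = 0.97), SMAD7, an inhibitor of TGF-beta signalling (r = 0.96), SH3BP4 (r = 0.96), the mitochondrial dehydrogenase subunit DHTKD1 (r = 0.95) and the actin-associated protein SYNPO (r = 0.95). Each of these 5 genes was higher under JQ1 in MDA-MB-231 and lower in HCC70, as DBP was, which follows from how they were picked. SMAD7 differed by 0.65 in MDA-MB-231 and by -0.78 in HCC70, and HYKK by 0.40 and -0.33, on the log2 scale. Among the clock genes HLF was nearest to DBP (r = 0.77), and CRY1 ran most nearly opposite (r = -0.58). The other r values with DBP were 0.57 for TEF, 0.55 for PER1, 0.51 for CRY2, 0.14 for PER3 and -0.03 for PER2.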

How the data were processed

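Biotin-labelled cDNA from 150 ng of total RNA per sample was hybridised to Human Gene 2.0 ST arrays, per the labels' protocols. The deposited values are log2 signals of transcript clusters; RMA, oligo and limma are named, without versions or roles, per the submitters' processing notes, and no source used here gives a genome build. Of 53617 clusters 16098 had 1 gene symbol, 0 several and 37519 none; the cluster with the highest mean was kept for each gene, which left 14884 genes. Columns of other series numbered 0. Depth does not apply to arrays, whose number limits precision.

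A model with 1 mean per group was fitted over the 12 arrays (lmFit and eBayes of limma 3.58.1, R 4.3.3), two-sided, with Benjamini-Hochberg adjustment over all genes and a threshold of 0.05. The SE is that of the limma coefficient. The procedure was tested on simulated data. Promoters are from RefSeq (GRCh38.p14). Named genes were all members, and of each other list up to 3 called genes per direction and line with the smallest p, plus the 5 genes nearest to DBP.

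Members, lists and alternatives were chosen with earlier results of these data known, and the line difference averaged over treatments was added after seeing the data. Same-numbered JQ1 and vehicle arrays were checked as pairs by the correlation of their deviations from group means over genes: it was 0.16, 0.12 and 0.36 in MDA-MB-231, against -0.25 to 0.12 between unlike numbers. These arrays were taken as paired, each r being over 0.1, although the highest unlike pair equals the lowest like pair. In HCC70 it was -0.06, 0.01 and 0.07, against -0.14 to 0.14, and they were not. The main fit used no pairing in either line, and no fit paired the arrays of MDA-MB-231 alone. A block on the replicate number was an alternative. For the JQ1 effects and their difference it paired same-numbered arrays within each line, HCC70 included. For contrasts between the lines it grouped same-numbered arrays of all 4 groups. Other alternatives were the 2 groups alone, trend and robust moderation, a filter on dim genes and averaging the clusters of a gene. Testing each cluster, quantile normalization, centring on medians and leaving out arrays were run too.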

Additional observations from a re-analysis of the deposited data

Results flagged for a closer look

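The JQ1 effect differed between the lines for 9 of the genes named, by the limma test of the difference itself over all genes (HCC70 minus MDA-MB-231). These were 3 of the 8 measured clock and PAR bZIP genes and 6 of the 21 other clock genes, beside 15.0% of all genes. Nothing is read from these counts. For DBP the log2 difference was -1.97, for HLF -1.0003 and for PER1 -0.45. These 3 were listed with their JQ1 responses known, so the test is no support. The other 6 were named for their small p under JQ1. The difference is built from those comparisons, so the p-values of these 6 are a description too. For NPAS2, which fell more in HCC70, the log2 difference was -0.58 (limma adjusted p = 0.0063). It was 0.93 for BMAL2, 0.95 for WEE1, 0.86 for SIRT1, 0.47 for KLF10 (limma adjusted p = 0.013) and 0.54 for NAMPT (limma adjusted p = 0.046). The PER1 and NAMPT differences no longer passed with the replicate number as a block, without the 3 arrays numbered 3 (-0.38 and 0.37) or over all transcript clusters. Without single arrays PER1 lost the call for 7 arrays and NAMPT for 9, and PER1 lost it with arrays centred and NAMPT with quantile normalization. Those of DBP, HLF, BMAL2, NPAS2, SIRT1, WEE1 and KLF10 passed under all alternatives run.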

How the results depend on the processing

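Counts of called clock and PAR bZIP genes stayed within 1.5 times the value reported under all alternatives run, with exceptions for the difference of the JQ1 effects and for the averaged line difference. For the difference of the JQ1 effects, 5 genes passed in place of 3 among genes above the median level, where CRY1 and CRY2 were added. Fewer genes were tested there, and TEF, below that level, was not among them. For the averaged line difference 3 genes passed in place of 5 over all transcript clusters, 3 with centred arrays and 3 to 5 leaving out 1 array at a time. Leaving out 1 array at a time gave 5 to 6 genes for JQ1 in MDA-MB-231, 4 to 4 in HCC70, 2 to 3 for the difference, 4 to 5 between the vehicle-treated and 5 to 7 between the JQ1-treated lines, and 8 to 10 and 5 to 7 other clock genes for JQ1 in MDA-MB-231 and HCC70. Values near 0 changed sign: the PER2 difference of effects was -0.014 with quantile normalization and -0.070 to 0.065 leaving out arrays, the vehicle CRY2 difference was -0.11 without the 3 arrays numbered 3 and -0.11 to 0.11 leaving out arrays, the BMAL2 change in HCC70 was -0.13 to 0.020 and the averaged TEF difference -0.011 to 0.094 leaving out arrays. The causes were not tested. Over single genes 1540 of the recomputed values kept direction and side of the threshold, 86 lost and 31 gained a call, and 11 changed sign. The replicate block added CRY1 in MDA-MB-231 and CRY1 and CRY2 for the difference, ended the PER1 and NAMPT differences and the averaged DBP difference (limma adjusted p of NAMPT 0.069 and of DBP 0.065) and changed no other call. The difference of effects has no value with 2 groups fitted alone. Probe signal over background was not recorded in the values used. Genes near the array medians, such as TEF and HLF, thus have no detection limit here.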
